A study of Mus musculus with 5 samples.

Results

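Forkhead (Fox) genes encode transcription factors that share a winged-helix DNA-binding domain. All gene symbols made of Fox, 1 letter and a number were taken from the feature tables, which gave 43 genes of the 32285 measured. Subfamilies carry a letter: Foxc and Foxf genes pattern mesoderm and vessels, Foxo proteins respond to insulin signalling, Foxp proteins act mainly as repressors, and Foxm1 drives entry into mitosis. In limb and genital mesenchyme several of them act downstream of Hedgehog signals, and in vessels Foxc2 is known for its part in lymphatic valve formation.

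The libraries were 10X Genomics 3′ single-cell libraries of mouse tissue, all from the C57BL/6N strain per the labels, whereas the study's methods name C57BL/6J. The 3 penis libraries came from males at postnatal day 6, with the prepuce removed, and 1 library each came from forelimbs and hindlimbs at embryonic day 15, pooled over male embryos. The limb age is that of the labels, and the study's text gives a slightly later age in places and a slightly earlier one in its cell filtering methods. The labels name no allele beyond the strain and no treatment for any group. Tissue, age and preparation therefore differed together between penis and limb and cannot be told apart in any comparison below, and a penis library stands for 1 mouse while a limb library stands for a pool.

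Levels are given in CPM, the gene's UMIs (unique molecular identifiers) scaled to 1 common total for all libraries and cell types. They count 3′ tags and are not per length, so they compare libraries for 1 gene and not genes with each other. After filtering, 5708 to 7085 cells per penis library, 22057 forelimb cells and 20514 hindlimb cells remained, with 51529854 to 148752710 UMIs per library. Cells were gated on marker genes that held no Fox gene, and the gated sums were compared between the 3 penis and the 2 limb libraries. The limb markers followed the labels: Tbx5, the forelimb factor, was at 72.3 CPM in forelimb and 4.48 in hindlimb mesenchyme-gated cells, and Pitx1, the hindlimb factor, at 0.678 and 87.7. No pair of libraries shared more than 124 cell barcodes.

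Of the 43 Fox genes, 14 had at least 5000 UMIs over all libraries, 11 had fewer but at least 500, 5 had fewer but at least 50, 10 had 1 to 49 and 3 had none. The deepest were Foxp1 (192131 UMIs), Foxn3 (106087) and Foxp2 (83366), which are also the longest of the family with 597, 374 and 541 kb of genomic span. Whether reads in introns were counted was not stated, and long genes gain most from such reads. The next 11 were Foxo3, Foxn2, Foxo1, Foxj3, Foxp4, Foxk2, Foxk1, Foxc1, Foxj2, Foxm1 and Foxo4. The 11 genes of the second class were Foxf2, Foxq1, Foxc2, Foxa3, Foxd1, Foxj1, Foxd2, Foxo6, Foxs1, Foxf1 and Foxl2.

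The third class held 5 genes. Foxn1, a regulator of keratinocyte and thymic epithelial differentiation, had 220 UMIs. Foxa2 had 120, Foxa1 118, Foxl1 97 and Foxp3, the factor of regulatory T cells, 75. Among the 10 genes with 1 to 49 UMIs were Foxr1 (37), Foxi3 (25), Foxe1 (21), Foxd4 (21), Foxr2 (16), Foxn4 (14), Foxh1 (9), Foxi1 (3) and Foxb1 (1). Foxb2, Foxe3 and Foxi2 had 0 UMIs, which allows up to 3 UMIs per library by counting error.

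**Figure D1:**
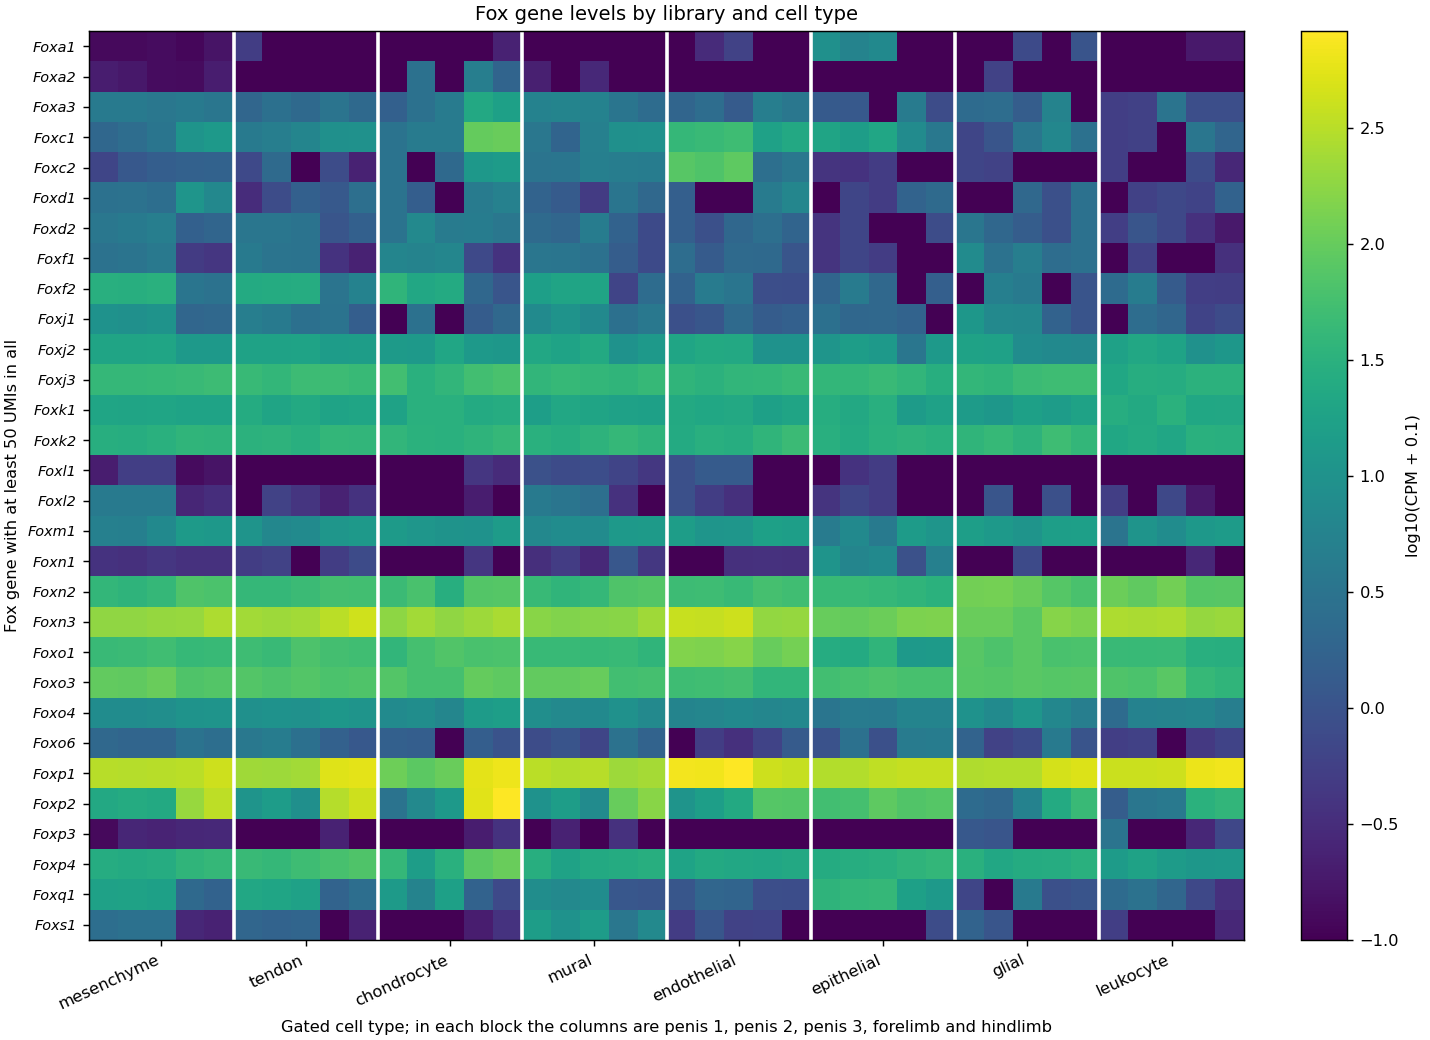
Levels of the 30 Fox genes with at least 50 UMIs, as log10 of CPM plus 0.1, in 8 gated cell types (blocks) and in each of the 5 libraries (columns of a block). Foxj3, Foxk1 and Foxk2 stay between 11.7 and 61.2 CPM in every block, whereas Foxa1 is seen mainly in penis epithelial-gated cells and Foxc2 is highest in penis endothelial-gated cells.

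Of the genes described below, 6 lie in 2 clusters of the mouse genome (GRCm38, GENCODE M21 annotation). On chromosome 13, Foxq1 (chr13:31556134-31560976), Foxf2 (chr13:31625816-31631403) and Foxc1 (chr13:31806633-31812476) are on the plus strand, with gaps of 64.8 and 175.2 kb. On chromosome 8, Foxf1 (chr8:121084386-121088144), Foxc2 (chr8:121116171-121118895) and Foxl1 (chr8:121127940-121130644) are on the plus strand, with gaps of 28.0 and 9.04 kb. The long noncoding RNA Fendrr lies on the minus strand with its start 1.28 kb before that of Foxf1, so that both are read away from each other.

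RefSeq (GRCm38.p6) start sites were matched for 27 of the 43 genes. The 250 bases before the start are shown for Foxf2 and Foxc1, chromosome 13 neighbours whose levels differed in opposite directions in mesenchyme-gated cells, and for Foxd1, which was lower in penis. All 3 are plus-strand sequences written 5′ to 3′, from chr13:31625566-31625815, chr13:31806396-31806645 and chr13:98353995-98354244. Capitals mark matches to the GC box GGGCGG on either strand.
Foxf2: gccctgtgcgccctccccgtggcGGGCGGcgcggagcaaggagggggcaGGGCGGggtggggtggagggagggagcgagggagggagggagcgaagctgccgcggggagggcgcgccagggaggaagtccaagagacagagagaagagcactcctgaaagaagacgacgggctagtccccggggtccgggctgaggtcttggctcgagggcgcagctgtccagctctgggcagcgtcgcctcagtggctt
Foxc1: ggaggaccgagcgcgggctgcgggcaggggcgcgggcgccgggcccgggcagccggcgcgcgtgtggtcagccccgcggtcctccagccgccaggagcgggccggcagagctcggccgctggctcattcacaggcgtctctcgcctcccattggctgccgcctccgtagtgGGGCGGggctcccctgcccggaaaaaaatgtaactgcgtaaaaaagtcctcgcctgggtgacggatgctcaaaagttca
Foxd1: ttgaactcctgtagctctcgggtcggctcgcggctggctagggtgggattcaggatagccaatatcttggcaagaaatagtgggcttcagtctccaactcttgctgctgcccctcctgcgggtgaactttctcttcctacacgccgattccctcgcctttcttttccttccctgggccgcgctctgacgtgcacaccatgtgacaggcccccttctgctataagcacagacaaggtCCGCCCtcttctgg

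The GC box is the recognition element of Sp-family factors. Foxf2 held 2 matches, Foxc1 1 and Foxd1 1, and 32.7% of all 32851 RefSeq promoters of this length held at least 1. The forkhead core TGTTTAC (3.17% of promoters), the GLI core TGGGTGGTC (0.225%), TATAAA (12.4%) and the androgen response element (0.00913%) were searched on both strands and did not match in these 3 windows. The windows were 71.6% (Foxf2), 70.8% (Foxc1) and 57.2% (Foxd1) G and C.

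In mesenchyme-gated cells, Fox genes of the Foxf, Foxq, Foxl and Foxs subfamilies were higher in penis and Foxp2, Foxc1, Foxd1 and Foxm1 were lower. The gate asked for at least 3 of 6 mesenchyme markers and held 3021 to 3683 cells per penis library, 9623 forelimb and 9148 hindlimb cells. Of 27 Fox genes tested, 8 were called higher in penis, where 12.4% of all genes tested were, and 4 lower, where 12.8% were. Of the higher genes, Foxl1, Foxl2 and Foxs1 passed the filter on low counts through penis libraries alone, which fixed the direction of their calls. A gene was called at an adjusted p under 0.01 and an absolute log2 fold change above 1 (edgeR quasi-likelihood test), and fold changes are penis over limb on the log2 scale throughout.

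Foxf2, a mesenchymal factor of gut, palate and genital tissue, was at 29.6, 28.3 and 30.4 CPM in penis, with a forelimb level of 3.23 and a hindlimb level of 2.95. All 3 penis libraries lay above both limb libraries, with means of 29.4 ± 1.08 CPM (SD, n = 3) in penis and 3.09 ± 0.198 (SD, n = 2) in limb, and the log2 fold change was 3.23 ± 0.081 (SE, adjusted p = 5.52e-09). Its neighbour Foxq1, a factor best known from hair and epithelia, was at 17.4, 17.7 and 16.8 CPM in penis, with a forelimb level of 2.08 and a hindlimb level of 1.59. The groups did not overlap, and the change, 3.22 ± 0.12 (SE, adjusted p = 5.46e-08), was close in size to that of Foxf2.

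On chromosome 8, Foxf1, a Hedgehog-responsive factor of visceral mesoderm, was at 2.92, 3.10 and 3.72 CPM in penis, with a forelimb level of 0.372 and a hindlimb level of 0.321. It was about as much higher in penis as Foxf2, with a log2 fold change of 3.19 ± 0.20 (SE, adjusted p = 1.09e-06), and every penis library lay above every limb library. Foxl1, known from the mesenchyme under gut epithelium, was at 0.108, 0.436 and 0.425 CPM in penis, with a forelimb level of 0.0323 and a hindlimb level of 0.0612. Foxl1 passed the filter on low counts through penis libraries alone, so the direction of its call was fixed by that filter. It rests on 32 UMIs in penis and 6 in limb, its change of 2.66 ± 0.71 (SE, adjusted p = 0.00772) had the widest error of the 12, and it was no longer called without the forelimb or without the hindlimb library. Foxc2, which lies between them, was at 0.567, 1.09 and 1.38 CPM in penis, with a forelimb level of 1.55 and a hindlimb level of 1.64, and its change of −0.70 ± 0.28 (SE, adjusted p = 0.0482) was not called.

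Foxl2, the factor that maintains granulosa cell identity in the ovary, was at 4.08, 3.95 and 3.86 CPM in penis, with a forelimb level of 0.162 and a hindlimb level of 0.229. It had the largest change of the family in these cells, 4.30 ± 0.21 (SE, adjusted p = 2.00e-07), from 405 UMIs in penis and 25 in limb. Foxs1, a marker of pericytes and neural crest cells, was at 2.51, 2.78 and 2.76 CPM in penis, with a forelimb level of 0.178 and a hindlimb level of 0.138. It rested on 273 and 20 UMIs, its groups lay far apart, and its change was 4.05 ± 0.23 (SE, adjusted p = 5.74e-07). Both Foxl2 and Foxs1 passed the filter on low counts through the penis libraries alone, so the direction of their calls was fixed by that filter.

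Foxj1, the master regulator of motile cilia, was at 9.67, 9.06 and 10.4 CPM in penis, with a forelimb level of 1.89 and a hindlimb level of 1.97. The groups were separate and the log2 fold change was 2.30 ± 0.11 (SE, adjusted p = 1.81e-07). Foxd2, expressed in kidney and limb mesenchyme, was at 3.49, 4.00 and 4.64 CPM in penis, with a forelimb level of 1.47 and a hindlimb level of 1.77. Its change was the smallest of the 8 higher genes, 1.29 ± 0.16 (SE, adjusted p = 8.95e-05), and the groups did not overlap.

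**Figure D2:**
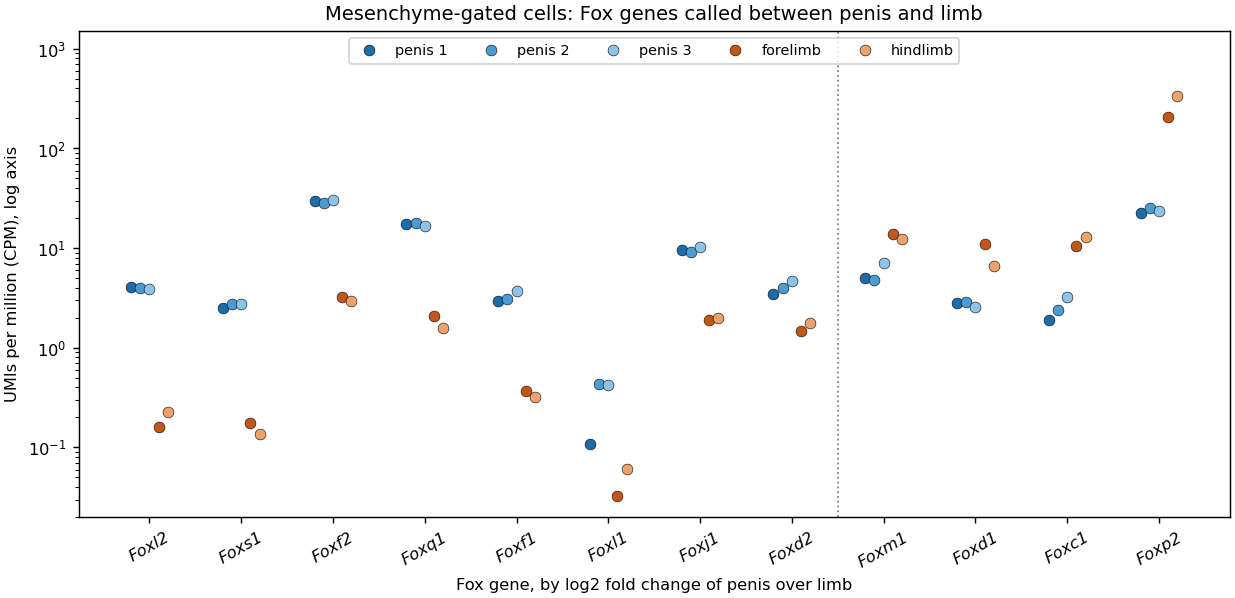
Levels (CPM, log axis) in mesenchyme-gated cells of the 12 Fox genes called between penis and limb, with 1 point per library, ordered by log2 fold change; a dotted line parts the 8 higher from the 4 lower. For every gene the 3 penis points lie on one side of both limb points, and the penis points of Foxl1 are the most spread.

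Foxp2, a repressor expressed in developing limb, lung and brain, was the most changed of the 4 lower genes. It was at 22.8, 25.3 and 23.5 CPM in penis, with a forelimb level of 206 and a hindlimb level of 335, so that the limb libraries themselves differed but both lay far above the penis libraries. The means were 23.9 ± 1.30 CPM (SD, n = 3) in penis and 271 ± 91.0 (SD, n = 2) in limb, and the log2 fold change was −3.52 ± 0.17 (SE, adjusted p = 1.92e-07). In leukocyte-gated cells, which are not known for Foxp2, it was at 1.33, 3.37 and 3.71 CPM in penis against 32.2 and 37.3 in limb, and in the limb muscle-gated cells at 42.3 and 52.0 CPM. The limb leukocyte level was above that of penis mesenchyme. Erythroid-gated cells, too few in penis for a test, had Foxp2 at 14.5, 15.5 and 37.7 CPM in penis against 203 and 323 in limb. Most of them also met the mesenchyme gate. Of 35 penis, 78 forelimb and 68 hindlimb cells, 2, 29 and 22 did not, so this gate does not stand for red blood cells alone. The part of free RNA in the Foxp2 levels of any cell type was not tested.

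Foxc1, a factor of skeletal, ocular and vascular development, was at 1.92, 2.40 and 3.22 CPM in penis, with a forelimb level of 10.5 and a hindlimb level of 13.0. Its log2 fold change of −2.27 ± 0.17 (SE, adjusted p = 2.84e-06) was opposite in sign to those of Foxq1 and Foxf2 beside it on chromosome 13. Foxd1, a marker of stromal progenitors in kidney, was at 2.81, 2.91 and 2.55 CPM in penis, with a forelimb level of 10.9 and a hindlimb level of 6.56. The limb libraries differed from each other more than the penis libraries did, no penis library reached a limb library, and the change was −1.68 ± 0.21 (SE, adjusted p = 8.51e-05). Foxm1 was at 5.00, 4.74 and 7.01 CPM in penis, with a forelimb level of 13.7 and a hindlimb level of 12.2, with a change of −1.25 ± 0.14 (SE, adjusted p = 3.72e-05), and is set beside the share of dividing cells below.

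The other 15 tested genes were not called, with log2 fold changes from −0.83 to 0.58. Among them 8 had an adjusted p under 0.01 but a change smaller than 1. The 6 with most counts were Foxp1 (−0.28 ± 0.094 SE), Foxn3 (−0.39 ± 0.10 SE), Foxo3 (0.45 ± 0.062 SE), Foxn2 (−0.83 ± 0.071 SE), Foxo1 (0.14 ± 0.064 SE) and Foxj3 (−0.21 ± 0.059 SE). The other 16 Fox genes did not pass the filter on low counts.

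As shares of cells, the same directions were seen. The shares come from the same UMIs as the calls, so they describe the levels in another way and are not separate support. Cells were thinned to 2000 UMIs, which kept 2981 to 3649 mesenchyme-gated cells per penis library, 9451 forelimb and 9064 hindlimb cells. After thinning, 5.57% ± 0.272 (SD, n = 3) of penis cells and 0.636% ± 0.035 (SD, n = 2) of limb cells had a Foxf2 UMI. Unthinned, the shares were 20.4%, 19.96% and 19.96% in penis, 1.61% in forelimb and 1.53% in hindlimb. In thinned leukocyte-gated cells, which should lack Foxf2, 0.216% to 0.407% of penis and 0.0514% to 0.0676% of limb cells had one. For Foxp2 the thinned shares were 3.74% ± 0.108 (SD, n = 3) and 27.1% ± 6.6 (SD, n = 2), against 0.378% and 3.31% in leukocyte-gated cells. Median depths were 9019 to 10234 UMIs per penis and 5561 and 6232 per limb mesenchyme-gated cell, and 6708 to 7790 and 6977 and 8126 per leukocyte-gated cell. With 5 libraries the exact permutation test has 10 splits and cannot go below p = 0.1 (two-sided), the value it gave for 11 of the 12 genes. For Foxl1 the exact permutation test gave p = 0.2. The genes were chosen by their calls on the same UMIs, so these p-values are not separate support either.

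In endothelial-gated cells, Foxc2 and, less, Foxc1 were higher in penis, which is the reverse of Foxc1 in mesenchyme. The gate held 410 to 494 cells per penis library and 448 and 386 limb cells, and their median cell had 7 or 8 of 8 endothelial markers. Of 18 Fox genes tested, 3 were called higher (background 7.37%) and 2 lower (background 8.64%).

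Foxc2, which acts in lymphatic valves and in arterial specification, was at 78.1, 69.9 and 89.3 CPM in penis, with a forelimb level of 2.56 and a hindlimb level of 3.49. The means were 79.1 ± 9.77 CPM (SD, n = 3) in penis and 3.02 ± 0.656 (SD, n = 2) in limb, no limb library came near a penis library, and the log2 fold change was 4.69 ± 0.20 (SE, adjusted p = 6.79e-11). After thinning to 2000 UMIs, which kept 389 to 463 cells per penis library and 416 and 353 limb cells, 13.6% ± 1.39 (SD, n = 3) of penis and 0.395% ± 0.117 (SD, n = 2) of limb endothelial-gated cells had a Foxc2 UMI, and at most 0.103% of leukocyte-gated cells of any library did. The endothelial-gated cells were then split by lymphatic markers (at least 2 of Prox1, Mmrn1, Lyve1, Flt4 and Reln). In the lymphatic cells, 83 to 95 per penis library and 71 and 79 per limb library, Foxc2 was at 106, 95.8 and 120.0 CPM in penis against 6.99 and 6.92 in limb. In the remaining blood vessel cells it was at 69.5, 62.6 and 76.9 CPM in penis against 1.03 and 1.56 in limb. Penis lay above limb in both, and lymphatic cells lay above blood vessel cells in each of the 5 libraries.

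Foxc1 was at 41.3, 44.7 and 50.7 CPM in penis, with a forelimb level of 17.4 and a hindlimb level of 22.9, with a log2 fold change of 1.17 ± 0.15 (SE, adjusted p = 9.03e-06). It was just past the limit of 1, and was not called with 1 more marker in every gate (0.97) or without the forelimb library (0.997). It was at 52.5, 53.6 and 61.3 CPM in penis against 21.0 and 24.2 in limb in lymphatic cells and at 37.8, 42.2 and 46.4 CPM in penis against 16.2 and 22.2 in limb in blood vessel cells, with penis above limb in both. Foxj2, a broadly expressed member, was at 19.7, 24.0 and 23.0 CPM in penis, with a forelimb level of 9.72 and a hindlimb level of 9.96 and changed by 1.17 ± 0.18 (SE, adjusted p = 6.86e-05), which was not called with 1 marker fewer in every gate (0.87).

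Foxd1 and Foxp2 were lower in penis endothelial-gated cells. Foxd1 was at 1.41, 0 and 0 CPM in penis, with a forelimb level of 4.09 and a hindlimb level of 6.23, from 7 UMIs in penis, all of them in penis 1, and 41 in limb. Foxd1 passed the filter on low counts through the limb libraries alone, so the direction of its call was fixed by that filter. Its change of −3.29 ± 0.70 (SE, adjusted p = 0.00112) was not called without the hindlimb library or by DESeq2, and ran from −7.46 to −1.29 over the other settings. Foxp2 was at 10.5, 15.4 and 24.0 CPM in penis, with a forelimb level of 76.8 and a hindlimb level of 75.2, with a change of −2.22 ± 0.19 (SE, adjusted p = 1.41e-07). Limited to endothelial-gated cells that do not also meet the mesenchyme gate, Foxc2, Foxc1 and Foxj2 were still called, and the Foxp2 change shrank to −0.86 and was not.

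The 13 Fox genes not called ranged from −1.11 to 1.92. The 6 with most counts were Foxp1 (0.89 ± 0.087 SE), Foxn3 (0.97 ± 0.080 SE), Foxo1 (0.42 ± 0.093 SE), Foxn2 (−0.20 ± 0.11 SE), Foxo3 (0.46 ± 0.11 SE) and Foxj3 (−0.23 ± 0.12 SE). Foxl1, which was too sparse for the test, had 15 UMIs in penis and 0 in limb endothelial-gated cells. Against a floor of 3 UMIs over the limb libraries its level was 2.84-fold higher. This takes the penis count as it stands, without its counting error.

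**Figure D3:**
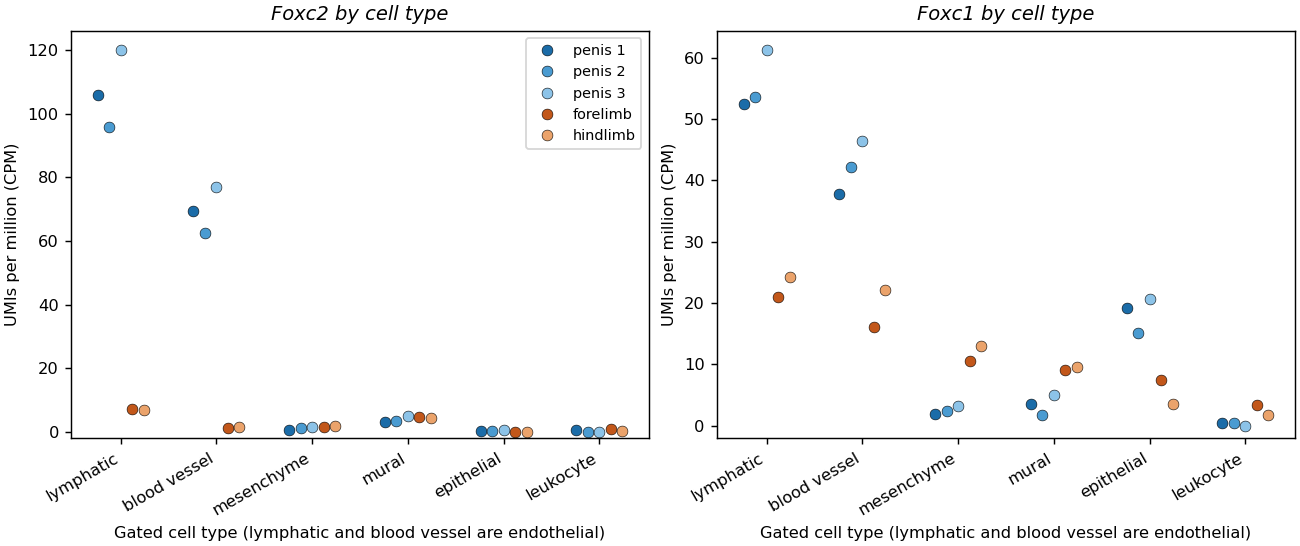
Foxc2 (left) and Foxc1 (right) levels in CPM by gated cell type, 1 point per library. Foxc2 stands at 62.6 to 120.0 CPM in the penis lymphatic and blood vessel cells and at most 6.99 in those of the limb, and the penis points of Foxc1 lie above the limb points in endothelial and epithelial cells and below them in mesenchyme.

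In epithelial-gated cells, 4 Fox genes were higher in penis and none lower. The gate held 251 to 390 cells per penis library and 180 and 214 limb cells, with a median of 5.5 to 6 of 8 epithelial markers. Of 18 Fox genes tested, 4 were called higher (background 5.29%) and 0 lower (background 6.16%) by edgeR, where 8 had an unadjusted p under 0.05 in either direction and the fit with DESeq2 called 3.

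Foxa1, a pioneer factor of endodermal and urogenital epithelia, was at 9.12, 5.62 and 7.14 CPM in penis, with a forelimb level of 0 and a hindlimb level of 0. With 69 UMIs in penis and 0 in limb it was 6.26-fold higher in penis against a floor of 3 UMIs over the limb libraries. That value takes the penis count as it stands, without its counting error. It passed the filter on low counts through the penis libraries alone, so the direction of its call was fixed by that filter. Its level was at most 0.0612 CPM in mesenchyme-gated cells of any library. Foxc1 was at 19.1, 15.2 and 20.6 CPM in penis, with a forelimb level of 7.53 and a hindlimb level of 3.61, with non-overlapping groups and a change of 1.79 ± 0.36 (SE, adjusted p = 0.00158).

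Foxq1 was at 34.7, 39.0 and 40.9 CPM in penis, with a forelimb level of 16.7 and a hindlimb level of 13.0, higher than in the mesenchyme-gated cells of the same library in all 5. Its penis libraries lay above its limb libraries, and the change was 1.42 ± 0.23 (SE, adjusted p = 2.35e-04). Foxo1, a target of insulin and growth factor signalling, was at 26.8, 24.7 and 36.9 CPM in penis, with a forelimb level of 12.6 and a hindlimb level of 13.7. Its change of 1.19 ± 0.26 (SE, adjusted p = 0.00314) was lost under 6 of 12 other settings, among them each limb library left out.

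Foxp2, called lower in penis in the other 7 types tested, was at 53.6, 57.8 and 87.3 CPM in penis, with a forelimb level of 72.0 and a hindlimb level of 75.8 in epithelial-gated cells. The groups overlapped and the change was −0.12 ± 0.19 (SE, adjusted p = 0.672). Without the cells that also meet the mesenchyme gate the levels were 55.4, 52.1 and 81.0 CPM in penis and 18.2 and 19.3 in limb, and it was called higher in penis, at 1.74 ± 0.25 (SE, adjusted p = 9.46e-05). The 14 genes not called ranged from −1.35 to 1.40, and those with most counts beside Foxp2 were Foxp1 (−0.20 ± 0.12 SE), Foxn3 (−0.43 ± 0.12 SE), Foxo3 (0.068 ± 0.15 SE), Foxn2 (0.38 ± 0.18 SE) and Foxj3 (0.38 ± 0.19 SE). The Foxc1 call was lost without the hindlimb library.

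The penis against limb effect differed between cell types for several Fox genes. In a fit with the library as a block, the effect in endothelial-gated cells minus that in mesenchyme-gated cells was called for 7 of 26 Fox genes, 5 higher (background 3.97%) and 2 lower (background 5.4%). Foxc2 differed by 5.41 ± 0.36 (SE, adjusted p = 3.32e-07) and Foxc1 by 3.45 ± 0.19 (SE, adjusted p = 6.06e-08). Foxf1 differed by −2.81 ± 0.62 (SE, adjusted p = 0.00505), having been at 2.42, 1.23 and 2.20 CPM in penis against 2.05 and 0.996 in limb in endothelial-gated cells, where its groups overlapped. Foxj1 differed by −2.40 ± 0.59 (SE, adjusted p = 0.00962), and was at 0.805, 1.02 and 2.20 CPM in penis against 1.28 and 1.49 in limb in endothelial-gated cells.

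Foxn3, Foxp1 and Foxp2 had a more positive effect in endothelial than in mesenchyme-gated cells, by 1.36 ± 0.10 (SE, adjusted p = 7.32e-07), 1.16 ± 0.12 (SE, adjusted p = 1.96e-05) and 1.26 ± 0.27 (SE, adjusted p = 0.00398). Foxn3, a checkpoint-associated repressor, was at 385, 373 and 412 CPM in penis against 195 and 202 in limb in endothelial-gated cells and at 183, 185 and 195 CPM in penis against 209 and 276 in limb in mesenchyme-gated cells. Foxp1, which acts in vessels and lymphocytes, was at 719, 680.3 and 805 CPM in penis against 415 and 377 in limb and at 314, 307 and 316 CPM in penis against 324 and 422 in limb. For both, penis was above limb in the first and below it in the second. The Foxp2 difference was not called without penis 2, penis 3 or the hindlimb library, the Foxp1 difference without the hindlimb library, and those of Foxf1 and Foxj1 without penis 2 or either limb library, that of Foxf1 also without penis 3 and that of Foxj1 without penis 1. With 1 marker more in every gate those of Foxp1 and Foxj1 were lost, and with 1 marker fewer those of Foxp2 and Foxf1. The Foxj1 difference was also lost with all barcodes and without the cells that meet the mesenchyme gate. Over these settings the differences ran from 0.47 to 2.65 (Foxp2), 0.91 to 1.41 (Foxp1), −3.39 to −1.76 (Foxf1) and −2.80 to −1.47 (Foxj1).

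Between epithelial- and mesenchyme-gated cells the effect differed for 5 of 28 Fox genes, 4 higher (background 3.05%) and 1 lower (background 3.83%). The differences were 4.07 ± 0.40 (SE, adjusted p = 2.67e-07) for Foxc1, 3.37 ± 0.20 (SE, adjusted p = 1.82e-10) for Foxp2, 1.20 ± 0.19 (SE, adjusted p = 8.49e-05) for Foxn2 and 1.05 ± 0.25 (SE, adjusted p = 0.00608) for Foxo1. Foxq1 was the 1 lower, at −1.81 ± 0.31 (SE, adjusted p = 2.70e-04). The Foxo1 call was lost under 7 of 12 other settings, among them each limb library left out. Foxn2, a broadly expressed member, was at 43.9, 43.8 and 40.1 CPM in penis against 36.8 and 31.8 in limb in epithelial-gated and at 39.4, 34.8 and 40.0 CPM in penis against 69.4 and 63.9 in limb in mesenchyme-gated cells.

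**Figure D4:**
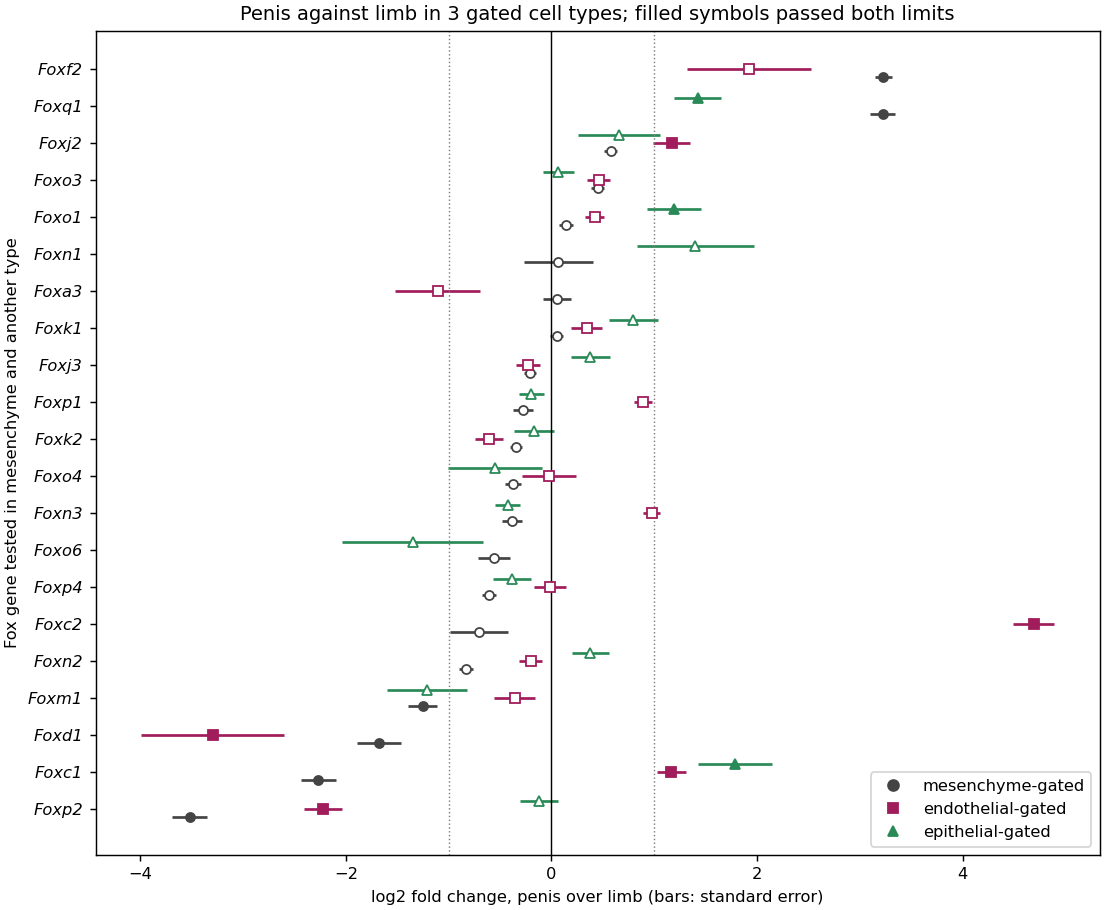
Log2 fold change of penis over limb with its standard error for each Fox gene tested in mesenchyme-gated cells and in at least 1 of endothelial- and epithelial-gated cells; filled symbols passed both limits and dotted lines mark a change of 1. Foxc1 lies at −2.27 in mesenchyme and at 1.17 and 1.79 in the other cells, and Foxc2 at −0.70 in mesenchyme and 4.69 in endothelial cells.

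The mural gate (at least 3 of 8 pericyte and smooth muscle markers) held 531 to 690 cells per penis library and 347 and 272 limb cells, but its median cell had only 3 mural markers and 4 or 5 of 6 mesenchyme markers. It is therefore described as cells with mural markers. Of 24 Fox genes tested in them, 5 were called higher in penis (background 10%) and 2 lower (background 8.59%). Foxl2 was at 3.86, 3.23 and 2.62 CPM in penis against 0.267 and 0 in limb, from 70 UMIs in penis and 1 in limb, a ratio of levels of 22.6 with a 95% counting interval of 3.92 to 904. Foxf2 was at 16.2, 19.1 and 19.6 CPM in penis against 0.534 and 2.30 in limb (3.66 ± 0.35 SE, adjusted p = 3.43e-06) and Foxq1 at 8.33, 6.86 and 8.04 CPM in penis against 1.07 and 0.986 in limb (2.79 ± 0.38 SE, adjusted p = 6.41e-05). All 3 had penis libraries above limb libraries, as in the mesenchyme gate. Here Foxl2 and Foxq1 passed the filter on low counts through the penis libraries alone, which fixed the direction of their calls.

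Foxj1 was at 7.37, 10.1 and 7.11 CPM in penis against 2.67 and 3.62 in limb with a change of 1.31 ± 0.32 (SE, adjusted p = 0.00465), and Foxs1 at 15.2, 9.82 and 14.4 CPM in penis against 3.47 and 6.90 in limb with 1.29 ± 0.31 (SE, adjusted p = 0.00379). Foxp2 was at 9.78, 15.2 and 7.67 CPM in penis against 102 and 168 in limb (−3.68 ± 0.23 SE, adjusted p = 7.93e-08) and Foxc1 at 3.50, 1.75 and 5.05 CPM in penis against 9.07 and 9.53 in limb (−1.57 ± 0.35 SE, adjusted p = 0.00234). The effect on Foxs1 was smaller than in mesenchyme-gated cells, with a difference of −2.71 ± 0.48 (SE, adjusted p = 9.01e-04), the 1 call among 26 Fox genes (background 1.09%), and this call was lost without the hindlimb library. By edgeR 0 Fox genes had a called effect in the other direction (background 0.842%), with 8 at an unadjusted p under 0.05 in either direction and 1 called by DESeq2 in all. The penis against limb calls of Foxs1 and Foxj1 were lost without penis 1 or without the forelimb library, that of Foxs1 also without penis 3, that of Foxj1 without penis 2 and that of Foxc1 without penis 1. The calls of Foxl2 and Foxj1 were lost by DESeq2, and those of Foxc1, Foxq1 and Foxs1 with 1 marker more in every gate.

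When the 74 to 77 penis and 59 and 60 limb cells with mural markers that do not meet the mesenchyme gate were taken alone, Foxs1 was at 40.5, 36.2 and 49.3 CPM in penis against 15.2 and 19.7 in limb. The libraries were separate but its change was not called. In these cells Foxl2 had 0 UMIs in every library, Foxf2 was at 17.3, 18.1 and 25.8 CPM in penis and at 0 in both limb libraries, and Foxp2 was at 3.85, 2.58 and 2.35 against 82.2 and 53.5. Foxp2 was the 1 gene called lower there, at −4.41 ± 0.54 (SE, adjusted p = 5.02e-06), and Foxo3 the 1 called higher, at 1.25 ± 0.32 (SE, adjusted p = 0.00591).

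In cells with tendon markers, Foxf1, Foxf2 and Foxq1 were higher and Foxp2 and Foxp1 lower in penis, and the median cell had 3 of 7 tendon and 4 or 5 of 6 mesenchyme markers. There were 306 to 390 per penis library and 862 and 762 in the limbs. Of 21 Fox genes, 5 were called higher in penis (background 9.91%) and 2 lower (background 8.87%). Foxp2 was at 10.5, 14.3 and 8.73 CPM in penis against 308 and 416 in limb (−5.00 ± 0.16 SE, adjusted p = 8.06e-11) and Foxp1 at 226, 218 and 233 CPM in penis against 525 and 565 in limb (−1.27 ± 0.072 SE, adjusted p = 1.04e-08). Both were lower in every penis library than in either limb library, and the Foxp1 call was lost with 1 marker more in every gate (−0.89).

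Of the higher genes in cells with tendon markers, Foxf1 was at 4.00, 3.16 and 3.01 CPM in penis against 0.281 and 0.137 in limb on 42 and 3 UMIs, a ratio of levels of 16.6 with a 95% counting interval of 5.29 to 83.5. Foxq1 was at 22.1, 20.1 and 17.2 CPM in penis against 1.69 and 2.46 in limb (3.25 ± 0.24 SE, adjusted p = 1.38e-07) and Foxf2 at 24.6, 25.7 and 26.5 CPM in penis against 3.10 and 5.34 in limb (2.59 ± 0.20 SE, adjusted p = 2.63e-07). Foxo6, an insulin-responsive member of low level, was at 3.58, 4.37 and 2.71 CPM in penis against 1.55 and 1.09 in limb (1.43 ± 0.39 SE, adjusted p = 0.00736), and Foxd2 at 3.37, 3.40 and 3.01 CPM in penis against 0.985 and 1.50 in limb (1.37 ± 0.39 SE, adjusted p = 0.00862). The last 2 lost their call in 7 of 10 and 8 of 10 other settings. Foxf1, Foxo6 and Foxd2 passed the filter on low counts through the penis libraries alone, which fixed the direction of their calls.

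Cells with cartilage markers (at least 4 of 8) numbered 46 to 57 per penis library and 1646 and 2185 in the limbs. The median limb cell had 6 cartilage and 1 or 2 mesenchyme markers, whereas the median penis cell had 4 of each, so the gate did not hold like cells in the 2 tissues. Of 14 Fox genes tested, 1 was called higher in penis (background 8.19%) and 5 lower (background 5.28%). Foxp2 was at 3.00, 6.97 and 12.4 CPM in penis against 547 and 828 in limb (−6.57 ± 0.31 SE, adjusted p = 2.81e-07), from 13 UMIs in penis. Foxc1, a skeletal regulator, was at 3.00, 4.18 and 4.14 CPM in penis against 96.9 and 104 in limb (−4.69 ± 0.26 SE, adjusted p = 7.07e-07). Its limb level was far above that of the limb mesenchyme-gated cells, and the penis level was near that of penis mesenchyme.

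Foxp1 was at 111, 86.5 and 106 CPM in penis against 574 and 668 in limb (−2.59 ± 0.15 SE, adjusted p = 9.18e-07) and Foxp4, a related repressor, at 40.5, 15.3 and 31.1 CPM in penis against 85.0 and 107 in limb (−1.71 ± 0.26 SE, adjusted p = 6.21e-04). Foxa3 was at 1.50, 2.79 and 4.14 CPM in penis against 23.4 and 17.1 in limb (−2.85 ± 0.50 SE, adjusted p = 0.00163), and lost its call without penis 1, without penis 2, without the forelimb library or with 1 marker more in every gate. Its change ran from −3.17 to −0.38 over the other settings. Foxf2 was the 1 higher gene, at 36.0, 22.3 and 24.8 CPM in penis against 1.92 and 0.971 in limb (4.36 ± 0.44 SE, adjusted p = 4.10e-05). Foxf2 passed the filter on low counts through the penis libraries alone, and Foxp2, Foxc1 and Foxa3 through the limb libraries alone. The direction of these calls was fixed by that filter. Only 5 to 8 penis cells per library had cartilage markers without meeting the mesenchyme gate, under the minimum of 20 cells set for a comparison. On these cells Foxa3, Foxc1, Foxf2 and Foxp4 had too few counts to be tested, and Foxp1 (−2.18, adjusted p = 0.119 by edgeR) and Foxp2 (adjusted p = 0.012) were not called, with changes of the same direction. So few cells do not show whether the changes differ without the gated mesenchyme. Foxa2, a hypertrophic chondrocyte regulator, had 2 UMIs in penis and 69 in limb cells with cartilage markers, a ratio of levels of 0.37 with a 95% counting interval of 0.0439 to 1.39.

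Leukocyte- and glial-gated cells each showed lower Foxp2 in penis, and the part of free RNA in these levels was not tested. In both, Foxp2 passed the filter on low counts through the limb libraries alone. In glial-gated cells Foxj1, given below, passed it through penis libraries alone. The direction of these calls was fixed by that filter. In leukocyte-gated cells (209 to 260 per penis library, 1471 and 1319 in the limbs) 1 of 13 Fox genes was called lower (background 8.09%). That gene was Foxp2, whose values are given above, at −3.69 ± 0.27 (SE, adjusted p = 1.89e-06), and 0 were called higher (background 13.3%) by edgeR, with 10 of the 13 at an unadjusted p under 0.05 in either direction and 1 called by DESeq2 in all. Foxp1 was at 401, 404 and 414 CPM in penis against 637 and 686 in limb (−0.72 ± 0.091 SE), Foxo3 at 68.5, 64.5 and 81.7 CPM in penis against 41.6 and 37.0 in limb (0.84 ± 0.11 SE), and Foxn2 at 108, 92.9 and 123 CPM in penis against 76.4 and 79.5 in limb (0.45 ± 0.10 SE). In glial-gated cells (160 to 187 per penis library, 161 and 122 in the limbs) Foxp2 was at 2.21, 1.95 and 5.36 CPM in penis against 24.6 and 45.8 in limb (−3.45 ± 0.41 SE, adjusted p = 3.41e-06), the 1 of 14 called lower (background 7.18%). Foxj1 was the 1 called higher (background 8.48%), at 11.6, 6.82 and 6.69 CPM in penis against 1.59 and 0.935 in limb on 45 and 3 UMIs, a ratio of levels of 6.52 with a 95% counting interval of 2.09 to 32.8. This call was lost without either limb library, by DESeq2 and with 1 marker more in every gate.

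Compared with mesenchyme-gated cells of the same libraries, the other types differed in which Fox genes they held, and this was tested with the library as a block over all 5 libraries. In endothelial-gated cells 1 of 23 was called higher (background 8.85%) and 3 lower (background 12.1%). Foxo1, needed for vessel growth and quiescence, was at 149, 144 and 163 CPM in penis, with a forelimb level of 102 and a hindlimb level of 125 in endothelial-gated cells and at 45.2, 46.9 and 51.6 CPM in penis against 41.8 and 43.7 in limb in mesenchyme-gated cells, a difference of 1.61 ± 0.082 (SE, adjusted p = 2.81e-05). Foxf2 (1.61, 4.10 and 3.18 CPM in penis against 0.768 and 0.747 in limb), Foxq1 (1.01, 1.84 and 1.71 CPM in penis against 0.768 and 0.747 in limb) and Foxo6 (0, 0.410 and 0.245 CPM in penis against 0.512 and 1.25 in limb) were lower, with log2 differences of −3.06 ± 0.29 (SE), −3.02 ± 0.40 (SE) and −2.24 ± 0.50 (SE). Foxc2 differed between tissues in these cells, so that no single difference from mesenchyme describes it, and it was not called.

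In cells with mural markers, 2 of 25 were higher than in mesenchyme (background 0.889%) and 3 lower (background 0.349%). Foxs1 differed by 2.74 ± 0.42 (SE, adjusted p = 0.0046) and Foxc2, at 3.14, 3.23 and 4.86 CPM in penis against 4.54 and 4.27 in limb, by 1.72 ± 0.21 (SE, adjusted p = 0.00129). The penis against limb effect on Foxs1 differed between these cells and mesenchyme by −2.71, so that no single difference describes Foxs1. Foxd1, at 1.69, 1.21 and 0.374 CPM in penis against 3.20 and 1.97 in limb, was lower, with a log2 difference of −1.50 ± 0.23 (SE), as were Foxq1 at −1.17 ± 0.12 (SE) and Foxp2 at −1.08 ± 0.093 (SE). In cells with mural markers that did not meet the mesenchyme gate, Foxs1 and Foxc2 differed from mesenchyme by 4.57 and 3.63, and Foxd1 was not called.

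In epithelial-gated cells, 2 of 22 were higher (background 8.68%) and 4 lower (background 14%). Foxn1 was at 10.6, 5.90 and 7.14 CPM in penis, with a forelimb level of 0.837 and a hindlimb level of 5.05, against at most 0.319 CPM in mesenchyme-gated cells of any library, a difference of 4.55 ± 0.48 (SE, adjusted p = 1.78e-04). Foxq1 differed by 1.91 ± 0.33 (SE, adjusted p = 0.00201). Its penis against limb effect differed between epithelial- and mesenchyme-gated cells by −1.81, so that no single difference describes it. Foxd2 (0.294, 0.562 and 0 CPM in penis against 0 and 0.722 in limb), Foxf2 (1.77, 4.21 and 1.98 CPM in penis against 0 and 1.44 in limb), Foxd1 (0, 0.562 and 0.397 CPM in penis against 1.67 and 2.16 in limb) and Foxj1 (2.65, 1.97 and 1.98 CPM in penis against 1.67 and 0 in limb) were lower, with log2 differences of −3.13 ± 0.60 (SE), −3.10 ± 0.36 (SE), −2.40 ± 0.46 (SE) and −1.79 ± 0.37 (SE).

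In leukocyte-gated cells, 1 of 22 was higher (background 15.4%) and 9 lower (background 20.5%). Foxn2 was higher by 1.24 ± 0.24 (SE, adjusted p = 0.00338). The 9 lower were Foxf2 (−2.99 ± 0.29 SE), Foxd1 (−2.76 ± 0.51 SE), Foxp2 (−2.72 ± 0.18 SE), Foxd2 (−2.62 ± 0.39 SE), Foxq1 (−2.34 ± 0.26 SE), Foxo6 (−2.33 ± 0.40 SE), Foxc1 (−2.08 ± 0.38 SE), Foxj1 (−2.02 ± 0.49 SE) and Foxa3 (−1.73 ± 0.43 SE). In these cells Foxf2 was at 2.21, 4.33 and 1.24 CPM in penis against 0.436 and 0.421 in limb, Foxd1 at 0, 0.482 and 0.619 CPM in penis against 0.524 and 1.60 in limb and Foxd2 at 0.442, 0.963 and 0.619 CPM in penis against 0.262 and 0.0843 in limb. Foxq1 was at 2.21, 2.89 and 1.86 CPM in penis against 0.611 and 0.253 in limb, Foxo6 at 0.442, 0.482 and 0 CPM in penis against 0.349 and 0.506 in limb and Foxc1 at 0.442, 0.482 and 0 CPM in penis against 3.32 and 1.77 in limb. Each of the 9 was below the mesenchyme level of the same library in all 5 libraries. Foxp3 had its highest level of any tested cell type in the leukocyte-gated cells of penis 1, at 3.09 CPM, and 0 UMIs in those of penis 2 and 3.

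In glial-gated cells, 0 of 24 were called higher (background 5.82%) by edgeR, with 14 at an unadjusted p under 0.05 in either direction, and 3 were lower (background 8.44%). These were Foxq1, at 0.553, 0 and 4.02 CPM in penis against 0.794 and 0.935 in limb (−3.29 ± 0.67 SE, adjusted p = 0.00803), Foxf2, at 0, 4.87 and 4.02 CPM in penis against 0 and 0.935 in limb (−3.26 ± 0.53 SE, adjusted p = 0.00316), and Foxp2 (−2.96 ± 0.19 SE, adjusted p = 5.69e-05). In cells with cartilage markers, 2 of 23 were higher than in mesenchyme (background 1.77%) and 0 lower (background 3.6%). Foxc2 was at 3.00, 0 and 2.07 CPM in penis against 12.1 and 14.1 in limb (2.54 ± 0.46 SE, adjusted p = 0.00801) and Foxc1 differed by 2.44 ± 0.42 (SE, adjusted p = 0.00592). Neither held without the forelimb or without the hindlimb library. The tissues differed here too, with Foxc1 far above mesenchyme in limb and little above it in penis, and Foxc2 in penis 2 below its mesenchyme level, so that no single difference describes either gene. In cells with tendon markers none of 24 was called in either direction by edgeR (background 0.625% higher and 0.583% lower), with 8 at an unadjusted p under 0.05 and 1 called by DESeq2.

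Foxm1 was the 1 Fox gene called in dividing mesenchyme-gated cells. Dividing cells had at least 3 of Mki67, Top2a, Cdk1, Tpx2 and Ube2c, none of which is a Fox gene. Of 25 Fox genes tested against the non-dividing cells of the same libraries, 1 was higher (background 3.86%) and 0 lower (background 0.434%) by edgeR, with 13 at an unadjusted p under 0.05. Foxm1 was at 56.3, 50.9 and 67.5 CPM in penis, with a forelimb level of 39.4 and a hindlimb level of 35.9 in dividing cells, and at 2.22, 2.35 and 3.02 CPM in penis, with a forelimb level of 4.24 and a hindlimb level of 3.32 in non-dividing cells. The levels did not overlap, and the difference was 3.92 ± 0.21 (SE, adjusted p = 3.84e-06). The gate's markers are themselves mitotic genes, as Foxm1 is, so its direction follows from how the cells were chosen.

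The share of dividing cells moved with Foxm1 between tissues. It was 4.00%, 3.61% and 4.57% of mesenchyme-gated cells in penis against 19.0% and 18.8% in the limbs. Within dividing cells Foxm1 lay higher in the 3 penis libraries than in both limb libraries, and within non-dividing cells lower, as the values above show. Over all mesenchyme-gated cells 19 of 20 FOXM1 target genes, which are mitotic genes, were lower in penis and 0 higher, where 12.8% and 12.4% of all genes tested were, with a median of −1.58 against 0.007 over all genes. The most changed were Birc5 (−2.47 ± 0.090), Bub1 (−2.42 ± 0.14) and Cenpe (−2.20 ± 0.14), which act in chromosome segregation. In endothelial-gated cells 12 of 20 were lower and 0 higher (background 8.64% and 7.37%), with a median of −1.07 against 0.009 over all genes. In the other types the number lower was 19 of 20 in mural- (median −1.68), 17 of 20 in tendon- (−1.37), 14 of 19 in leukocyte- (−1.53), 8 of 20 in glial- (−0.99), 5 of 20 in epithelial- (−0.69) and 0 of 14 in chondrocyte-gated cells (−0.29) by edgeR, and 0 were higher in each. The share of all genes tested that was lower in those 6 types was 8.59%, 8.87%, 8.09%, 7.18%, 6.16% and 5.28%. Foxm1 itself, in endothelial-gated cells, was at 15.3, 11.1 and 11.3 CPM in penis against 16.9 and 15.4 in limb (−0.36 ± 0.20 SE). The part of the share of dividing cells in the lower Foxm1 of penis mesenchyme was not tested.

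**Figure D5:**
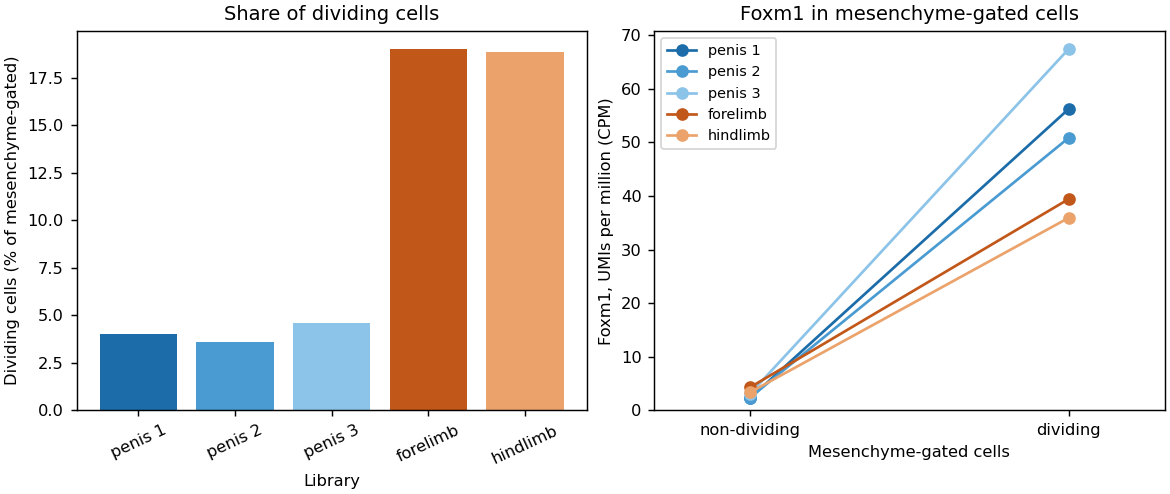
Left, dividing cells as a percentage of mesenchyme-gated cells in each library; right, Foxm1 (CPM) in non-dividing and dividing mesenchyme-gated cells, with a line per library. Dividing cells make up 3.61% to 4.57% in penis and 18.8% and 19.0% in limb, and in dividing cells Foxm1 stands at 50.9 to 67.5 CPM in penis and 35.9 and 39.4 in limb.

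No Foxo gene was called between penis and limb in mesenchyme-gated cells by edgeR, although Foxo3, Foxo4 and Foxo6 had an adjusted p under 0.01 at a change smaller than 1. Foxo1 and Foxo3 had log2 fold changes of 0.14 ± 0.064 (SE) and 0.45 ± 0.062 (SE), Foxo4 of −0.38 ± 0.078 (SE) and Foxo6 of −0.56 ± 0.15 (SE). Of a list of 20 FOXO target genes, 6 were higher in penis (background 12.4%), 2 lower (background 12.8%) and 12 not called, with a median of 0.38 against 0.007 over all genes. The largest changes were Trim63 (4.04 ± 0.25), a muscle ubiquitin ligase, Klf15 (3.14 ± 0.17), a glucocorticoid-responsive factor, and Txnip (2.54 ± 0.074), a glucose-responsive arrestin. Trib1 (−2.20 ± 0.087) and Irs2 (−1.29 ± 0.055) were the 2 lower. Of 15 genes upstream of FOXO proteins, 2 were higher (Pik3r1, 1.57 ± 0.095, and Sgk3, 1.16 ± 0.11), 1 lower (Pik3cb, −1.94 ± 0.15) and 12 not called, shares near or below the same background, with a median of 0.20. In endothelial-gated cells 4 of 18 tested targets were higher (background 7.37%) and 1 lower (background 8.64%), with a median of 0.37 against 0.009 over all genes. In epithelial-gated cells 3 of 18 were higher (background 5.29%) and 2 lower (background 6.16%), with a median of 0.13 against 0.009.

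Foxf1 and Foxf2 are known Hedgehog targets, and pathway genes were read beside them. Of 14 Hedgehog pathway genes 13 were tested in mesenchyme-gated cells, and 0 were higher in penis (background 12.4%), 4 lower (background 12.8%) and 9 not called by edgeR, with a median of −0.38 against 0.007 over all genes. Ihh, a ligand, changed by −1.68 ± 0.39 (SE, adjusted p = 0.00357). Ptch1, the receptor and a target gene, was at 29.1, 27.4 and 30.6 CPM in penis against 57.5 and 70.6 in limb with a change of −1.16 ± 0.083 (SE, adjusted p = 2.17e-06), Dhh changed by −1.15 ± 0.24 (SE, adjusted p = 0.00212), and Gli3, a transcription factor of the pathway, was the fourth. Gli1, the most used readout of the pathway, was at 16.1, 16.5 and 19.6 CPM in penis against 22.0 and 22.4 in limb and was not called. Fendrr, beside Foxf1, was at 1.76, 2.53 and 2.55 CPM in penis against 1.84 and 1.65 in limb, a change of 0.36 ± 0.19 (SE, adjusted p = 0.124) that was not called.

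Of the 4 long noncoding transcripts listed beside Fox genes, 3 were tested in mesenchyme-gated cells. In penis 2 were higher (background 12.4%) and 0 lower (background 12.8%), with a median of 1.73 against 0.007 over all genes. Foxl2os, beside Foxl2, changed by 5.81 ± 0.67 (SE, adjusted p = 4.60e-05) and Foxd2os, beside Foxd2, by 1.73 ± 0.076 (SE, adjusted p = 1.14e-07), each in the direction of its neighbour. Foxd2os was at 21.5, 20.8 and 20.7 CPM in penis against 5.98 and 6.51 in limb. In endothelial-gated cells the 1 tested was lower, at −1.01 (background 8.64%). The number higher was 1 of 2 in mural- (background 10%), 1 of 2 in tendon- (9.91%), 1 of 1 in chondrocyte- (8.19%) and 0 of 1 in glial-gated cells (8.48%). Whether the counting could assign reads of these transcripts to their neighbours was not tested. Foxj1 was higher in penis mesenchyme-gated cells, and of 18 ciliary genes it is known to drive 15 were tested there. Of these, 1 was higher (background 12.4%), 4 were lower (background 12.8%) and 10 were not called, with a median of −0.23 against 0.007 over all genes. Rsph1 was the higher one (1.93 ± 0.22), and Spag6l (−3.62 ± 0.50) and Dnah11 (−2.09 ± 0.35) had the largest changes of the lower ones.

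Forelimb and hindlimb are 1 library each, so their Fox levels are given without a test. In mesenchyme-gated cells 23 Fox genes had at least 20 UMIs in 1 of them, and none differed 2-fold or more. The ratio of hindlimb to forelimb levels ran from 0.602 to 1.62 with a median of 1.04. Foxp2 was the highest, at 206.4 CPM (95% counting interval 203 to 210.0) in forelimb and 335 (331 to 340) in hindlimb. Foxd1 was the lowest, at 10.9 (10.1 to 11.8) and 6.56 (5.95 to 7.21). The counting intervals of 9 genes were apart, which describes these libraries and not limbs in general. The shares over all genes are not given, so neither count is read as particular to Fox genes.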

How the data were processed

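The deposited values were raw UMI counts per gene and cell barcode, in 1 filtered matrix per library. Per the labels and the study's methods the authors made them with 10X 3′ v3.1 chemistry and Cell Ranger 7.0.0 on the mm10 mouse genome. Intron counting was not given in the sources used here. Cells were kept at 500 to 6000 genes and under 5% mitochondrial counts (penis), at 100 to 9000 (forelimb) or 9500 genes (hindlimb) and under 10%, and at log10 genes per log10 UMI above 0.8. The study's methods give the lower and upper limits as reads per cell, and they were read here as detected genes. No doublet caller was run.

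Cells were gated by marker lists without Fox genes. The 11 lists other than mesenchyme came first, cells that met more than 1 of them were set aside as mixed, and the remaining cells with at least 3 of 6 mesenchyme markers formed the mesenchyme gate. Types with under 20 cells in a library (osteoblast, muscle, melanocyte, erythroid) were not tested. UMIs were summed per library and type and tested with edgeR 4.0.16 (R 4.3.3, TMM, filterByExpr, quasi-likelihood test, Benjamini-Hochberg adjustment over all genes), with the library as a block between types. In penis against limb tests the filter on low counts asked for its cutoff in at least 2 libraries. Where a gene reached it in 1 tissue only, the direction of its call was fixed by that filter. Standard errors are the fold change over the root of the F statistic. Shares of cells were taken after thinning to 2000 UMIs. P-values measure the spread between these libraries, and counting intervals are exact Poisson and cover counting error only. In each penis against limb test the forelimb and the hindlimb library served as the replicates of limb. They are different tissues, so the limb spread and SD include any difference between forelimb and hindlimb. The study's methods name no separate embryos for them, so the limb libraries may not stand for independent animals.

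Alternatives were DESeq2 1.42.0, its size factors in edgeR, no filter on low counts, 1 marker more or fewer per gate, all barcodes, thinning to 1000 or 4000 UMIs, and each library left out. The members, gene lists and tests were chosen with earlier results of these data known. Values per library are given for each called gene (up to 8 a comparison), ranges for the others with up to 6 of highest count, and the 3 largest called changes of a list. Foxc2 in mesenchyme, Foxl1 in endothelial-gated cells, Foxa2, Foxp3, the second lower FOXO target and the fourth Hedgehog gene were named after their values were seen. In addition, 1 symbol of the Fox form is not reported here, and 1 of the members is counted but not described. Promoter sequences are from RefSeq (GRCm38.p6). The fits were tested on simulated data.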

Additional observations from a re-analysis of the deposited data

Results flagged for a closer look

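The penis against limb effect differed between cell types for 13 pairs of a Fox gene and a cell type, by an interaction test in the edgeR fit. Values are the log2 effect in the named cells minus that in mesenchyme-gated cells. In endothelial-gated cells the effect was more positive for Foxc2 (5.41), Foxc1 (3.45), Foxn3 (1.36), Foxp2 (1.26) and Foxp1 (1.16), and more negative for Foxj1 (−2.40) and Foxf1 (−2.81). In cells with mural markers it was more negative for Foxs1 (−2.71). In epithelial-gated cells it was more positive for Foxc1 (4.07), Foxp2 (3.37), Foxn2 (1.20) and Foxo1 (1.05), and more negative for Foxq1 (−1.81). Foxc1 appears in both, with penis above limb in endothelial- and epithelial-gated cells and below it in mesenchyme-gated cells in all 5 libraries.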

How the results depend on the processing

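Of 1012 tested values of called Fox genes under other settings, 870 kept their call, 142 lost it and 0 changed direction. In mesenchyme-gated cells 127 of 129 kept it, and Foxl1 lost it without the forelimb or the hindlimb library. All 114 recomputed shares kept their direction, but they come from the same UMIs as the calls and are not separate support. The cause of the changes below was not tested.

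Counts of called Fox genes moved as follows, under other settings and with libraries left out. The share of all genes called in each is not given beside them, so a moved count is not read as particular to Fox genes. With only cells that do not meet the mesenchyme gate (chosen after seeing the data), penis against limb gave 3 calls in place of 5 in endothelial-gated, 2 in place of 7 in mural-, 2 in place of 7 in tendon-, 0 in place of 6 in chondrocyte- and 0 in place of 2 in glial-gated cells. Most of these missing calls are of genes with too few counts to be tested there: Foxd1 (endothelial), Foxc1, Foxf2, Foxj1, Foxl2 and Foxq1 (mural), Foxd2, Foxf1, Foxf2, Foxo6 and Foxq1 (tendon), Foxa3, Foxc1, Foxf2 and Foxp4 (chondrocyte), and Foxj1 and Foxp2 (glial). Of the 58 values of called genes that could be tested under it, 51 kept and 7 lost their call. In penis against limb the lost calls were Foxp2 (endothelial), Foxs1 (mural), and Foxp1 and Foxp2 (chondrocyte, 5 to 8 penis cells per library). Against mesenchyme it gave 9 in place of 4 (endothelial), 6 in place of 2 (chondrocyte) and 1 in place of 0 (tendon), and the mural difference of effects gave 0 in place of 1. With 1 marker more, penis against limb gave 2 (mural), 1 (glial) and 3 (tendon), and against mesenchyme 9 (endothelial) and 1 (tendon). With 1 marker fewer it gave 1 (glial), and against mesenchyme 2 (endothelial) and 2 in place of 5 (mural), and the mural difference gave 0. DESeq2 gave 1 (glial), and against mesenchyme 8 (endothelial) and 1 (tendon). No filter gave 10 in place of 6 (epithelial) and 1 (tendon) against mesenchyme, and all barcodes gave 1 (chondrocyte).

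With each library left out, penis against limb ranged from 4 to 8 (mural, 4 without penis 1), 2 to 4 (epithelial, 2 without the hindlimb), 1 to 2 (leukocyte, 2 without penis 2 or penis 3) and 1 to 3 (glial, 1 without penis 1, penis 2 or either limb library). Against mesenchyme the range was 3 to 8 (endothelial, 8 without either limb library), 3 to 4 (mural, 3 without penis 2 or penis 3), 3 to 6 (epithelial, 3 without penis 2), 1 to 3 (glial, 1 without penis 2 or penis 3) and 0 to 2 (chondrocyte, 0 without either limb library, 1 without penis 1 or penis 3). The difference of effects ranged from 3 to 6 (endothelial, 3 without the hindlimb, 4 without penis 2) and 0 to 1 (mural, 0 without the hindlimb).

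Against mesenchyme, single genes lost their call without the libraries named here, each with its range of log2 differences over all settings. In endothelial-gated cells these were Foxo6 (penis 1, penis 2, penis 3, forelimb, −4.95 to −1.40). In mural-gated cells these were Foxd1 (penis 2, penis 3, forelimb, hindlimb, −1.75 to −0.96) and Foxs1 (penis 1, penis 2, penis 3, 2.31 to 4.57). In epithelial-gated cells these were Foxd1 (penis 2, penis 3, forelimb, −3.13 to −1.84), Foxd2 (penis 1, penis 2, penis 3, −4.90 to −2.40) and Foxj1 (penis 1, penis 2, penis 3, −2.33 to −1.65). In leukocyte-gated cells these were Foxa3 (penis 1, penis 2, forelimb, hindlimb, −2.83 to −1.59), Foxc1 (hindlimb, −2.87 to −1.83), Foxd1 (forelimb, −3.82 to −2.15), Foxj1 (penis 2, penis 3, forelimb, hindlimb, −2.97 to −1.64), Foxn2 (penis 1, penis 2, penis 3, 1.07 to 1.45) and Foxo6 (forelimb, −3.62 to −2.11). In glial-gated cells these were Foxf2 (penis 2, penis 3, −5.54 to −1.92) and Foxq1 (penis 1, penis 2, penis 3, −5.28 to −2.32). In chondrocyte-gated cells these were Foxc1 (forelimb, hindlimb, 1.90 to 3.16) and Foxc2 (penis 1, penis 3, forelimb, hindlimb, 1.95 to 3.15).

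Leaving out a library leaves 1 or 2 libraries in an arm, and a lone library is assumed to vary like the others. No paired analysis was possible because penis and limb libraries share no animal or batch number in the labels. Genes with few UMIs, such as Foxl1 and Foxd1 outside mesenchyme, are limited by depth.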
